A study of Mus musculus with 8 samples.

Results

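RNAs that code for RNA helicases and for ribosome biogenesis factors were followed from mouse embryonic stem (ES) cells to epiblast-like aggregates (ELA), in total RNA and in RNA bound to ribosomes. The members were chosen by symbol, with earlier results of these data known: the Ddx and Dhx helicases, the Nop, Nol, Utp, Rrp, Imp, Gnl and Exosc factors, fibrillarin, and a few single nucleolar genes. Of 3160 genes, 55 matched, of which 28 are helicases (21 Ddx and 7 Dhx) and 27 are other factors. By the roles written down for them, 13 act on the small ribosomal subunit, 8 on the large one, 2 are core proteins of small nucleolar RNA particles (snoRNPs) and 4 belong to the RNA exosome. Among the helicases, 11 take part in ribosome biogenesis, 10 in splicing, mRNA export or transcription, and 7 in translation, mRNA decay, RNA sensing or other tasks. Nucleolin, nucleophosmin, dyskerin, Nop56, Nop58, Bop1, Pes1, Rrs1 and Heatr1, which the same symbols would take in, were not analysed here.

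The cells were of the ES line E14Tg2A (strain 129/Ola), a single line, and all groups carried its genotype. ES cells (0 days in vitro) grew in serum with leukemia inhibitory factor. ELA formed after 2 days of floating culture in a minimal, chemically defined medium with N2 and B27 supplements, a step that starts neural differentiation. All cells were treated with cycloheximide, which stalls ribosomes on mRNA, and nuclei were pelleted from the lysate before any RNA was taken. At each stage, the total RNA of this lysate (input) is compared with the RNA pulled down by an antibody to the endogenous ribosomal protein Rpl10a (Rpl10a-IP), with 2 libraries in each of the 4 groups. The experiments were done in duplicate, and whether the replicates came from separate cultures is not given in the sources used here. The p-values therefore measure the spread between these libraries, pooled largely or fully over genes, and this spread may be technical.

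Ribosomes are built in the nucleolus. Precursor rRNA is folded, cut and modified there by snoRNPs and by the small subunit processome, a large scaffold of Utp and related proteins, while other factors shape the large subunit. DExD/H-box helicases use ATP to remodel RNA and RNA-protein contacts at these steps, in the spliceosome, in mRNA export and in translation, and the exosome trims and degrades RNA from its 3′ end. Rapidly growing ES cells make ribosomes at a high rate, and the mRNAs of this machinery are themselves translated in the cytoplasm, where this assay samples them.

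The libraries differed widely in depth. Over the 3160 genes, the Rpl10a-IP libraries held 16076207 to 23483388 reads and the ES input libraries 3898414 and 5380139, but the ELA input libraries only 159587 and 410192. The 55 members took 1.77 to 2.28% of the reads in each library. In ELA input replicate 1, which the methods of the study left out, members had 5 to 366 reads (median 28), 20 of them had 20 reads or fewer, and 1 read stood for 27.2 normalised counts. No member was at or below 3 reads in any library. For each comparison that uses this library, the counts of members called higher and lower are therefore also given without it. Values without it are given for some of the named members, and for some others only the loss of a call. The remaining named values that use it are given with it only. So are levels per kilobase, relations with length and other counts, such as those by role, by library order, over 2-fold, in both fractions and of other pathway genes. As a check of the labels, 5 of 12 listed naive ES markers were in the table (Nanog, Klf4, Klf2, Tfcp2l1 and Fgf4), and their summed normalised count lay between 10519 and 11265 in the ES libraries and between 1015 and 1686 in the ELA libraries. Of 4 core pluripotency markers, Pou5f1, Sall4 and Lin28a summed to 14248 to 15623 in ES and 9723 to 13992 in ELA, where Pou5f1 fell (−1.18 in total RNA and −1.73 on ribosomes, log2). The de novo methyltransferases Dnmt3a and Dnmt3b, 2 of 8 epiblast markers, summed to 4087 to 4550.3 in ES and 20437 to 28597 in ELA. Of 5 neural markers, Nes and Map2 rose from 516 to 662 in ES to 1608 to 3344 in ELA, and only Lama1 of 7 primitive endoderm markers was in the table, at 531 to 612 in ES and 326 to 665 in ELA. None of the 5 trophoblast markers was in the table. Reads of 8 members are uncertain because their genes overlap another protein-coding gene and no strand setting is given for the counting: Ddx5 (Cep95), Ddx19b (Aars), Ddx39 (Adgre5), Ddx49 (Homer3), Ddx54 (Cfap73), Gnl3 (Glt8d1), Rrp7a (Serhl) and Utp14b (Acsl3). In bulk samples of this kind, fewer cells of a type and less RNA per cell cannot be told apart.

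Normalised counts below are reads scaled to 1 common library size with TMM factors, and log2 differences come from limma on log2(normalised count + 1), with p-values adjusted by the Benjamini-Hochberg method over all 3160 genes. A change is called at an adjusted p-value under 0.05. The deposited table keeps only genes whose replicate ratios lay close together, which tends to make the adjusted p-values too small and the counts of calls too high. The size of this effect was not tested. Levels are compared between genes only as normalised counts per kilobase of the longest coding transcript. On that scale the highest mean levels in ES input were those of Ddx5 (3062 per kb), a transcription cofactor that also serves microRNA processing, Ddx3x (2961 per kb), a helicase of translation initiation, and Gnl3 (2285 per kb), the nucleolar GTPase nucleostemin. The lowest were those of Ddx51 (60.4 per kb), Ddx55 (75.5 per kb) and Utp23 (76.4 per kb), and the median over members was 323 per kb. In ELA input, Ddx5 (2433 per kb), Ddx3x (2427 per kb) and Gnl3 (1919 per kb) were again the 3 highest, and the median was 273 per kb.

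The first comparison asks how total RNA of the members changed between ES and ELA. Most of the called changes were falls. Of the 55 members, 30 fell and 7 rose, where 35.8% of all genes fell and 34.5% rose (70.2% called in all), and the median log2 difference was −0.33 over the members and −0.02 over all genes. Without ELA input replicate 1 the counts were 33 and 7, with a median of −0.34. Both ELA libraries lay below both ES libraries for 34 members and above them for 8, against 42.2% and 39.7% of all genes. More than 2-fold, 7 members fell (7.88% of all genes did) and 0 rose (10.5% of all genes did).

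By role, and beside the 35.8% of all genes that fell, the counts were as follows. Among the snoRNP core, both members fell. Among the 8 large subunit factors 6 fell and 0 rose, among the 13 small subunit factors 6 fell and 3 rose, and among the 4 exosome subunits 3 fell. The helicases of ribosome biogenesis had 3 falls, 1 rise and 7 members not called out of 11. Of the helicases of splicing, export and transcription 5 fell and 3 rose out of 10, and of the remaining 7 helicases 5 fell and 0 rose. No test between roles was made.

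Ddx58 (chromosome 4, 40203777 to 40239825, GRCm38.p6), the cytosolic RNA sensor RIG-I, fell farthest. Its normalised counts were 555 and 624 in ES input and 136 and 180 in ELA input, where the latter rest on 5 and 17 reads. The groups stood well apart, and the log2 difference was −1.90 (SE 0.14, adjusted p 4.39e-14). Nop16 (chromosome 13, 54584191 to 54590097), a nucleolar factor of the large subunit, had 638 and 676 in ES input and 190 and 233 in ELA input, a log2 difference of −1.64 (SE 0.13, adjusted p 4.88e-13). Both genes were thus lower in each ELA input library than in either ES library by a factor of more than 2. Nol9 (chromosome 4, 152039261 to 152061494), a polynucleotide kinase needed to process the precursor of large subunit rRNA, had 1650 and 1611 in ES input and 734 and 636 in ELA input (log2 difference −1.25, adjusted p 3.21e-12).

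The helicases Ddx49 (−1.25) and Ddx56 (−1.10), both of ribosome biogenesis, and the exosome cap subunit Exosc2 (−1.05) also fell by more than 2-fold, as did Ddx39 (−1.02), an mRNA export helicase with a close paralog, Ddx39b. Ddx49 had 507 and 432 in ES input and 190 and 201 in ELA input. Fibrillarin (Fbl), the methyltransferase of box C/D snoRNPs, had 1650 and 1504 in ES input and 979 and 742 in ELA input, with a log2 difference of −0.89 (SE 0.13, adjusted p 1.83e-07). In each of these genes the ELA libraries lay below the ES libraries with no overlap. Processed copies of Fbl in the genome could share its reads, so its level is uncertain. Without ELA input replicate 1, the falls of Ddx58, Nop16, Nol9, Ddx49, Ddx56, Exosc2 and Fbl were −1.70, −1.49, −1.36, −1.21, −1.15, −1.19 and −1.08, all still called.

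The 7 rises in total RNA were small. Ddx46, which acts at the branch site in early spliceosome assembly, had 2265 and 2359 in ES input and 3915 and 2979 in ELA input, a log2 difference of 0.56 (SE 0.11, adjusted p 4.12e-05). Utp23, a small subunit processome protein, had 230 and 217 in ES input and 353 and 297 in ELA input (0.54, SE 0.15, adjusted p 0.00156), the latter from 13 and 28 reads. The others were Ddx41 (0.44), Utp14b (0.42), Ddx19b (0.41), Dhx37 (0.40) and Rrp36 (0.32). Without ELA input replicate 1 they were 0.37 for Ddx46, 0.41 for Utp23, 0.29 for Ddx41, 0.67 for Utp14b and 0.46 for Ddx19b, and Dhx37 was no longer called at 0.24 (adjusted p 0.0978). Utp14b is a retrogene copy of Utp14a, so the 2 may share reads. Without ES input replicate 2, Ddx41, Utp14b and Rrp36 were not called. Utp14b also lost its call without ELA input replicate 2, and Rrp36 with the deposited size factors, with library quality weights and without any 1 of ELA input replicate 2, ES input replicate 1 and the ES Rpl10a-IP libraries. Utp14a, the parent gene, fell by 0.64 on the log2 scale. Ddx6, a helicase of mRNA storage and decay, had 4399 and 4664 in ES input and 4703 and 4431 in ELA input, 2 ranges that overlap (log2 difference 0.01, SE 0.10), although after the correction for transcript length and GC content given below it was called lower.

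**Figure D1:**
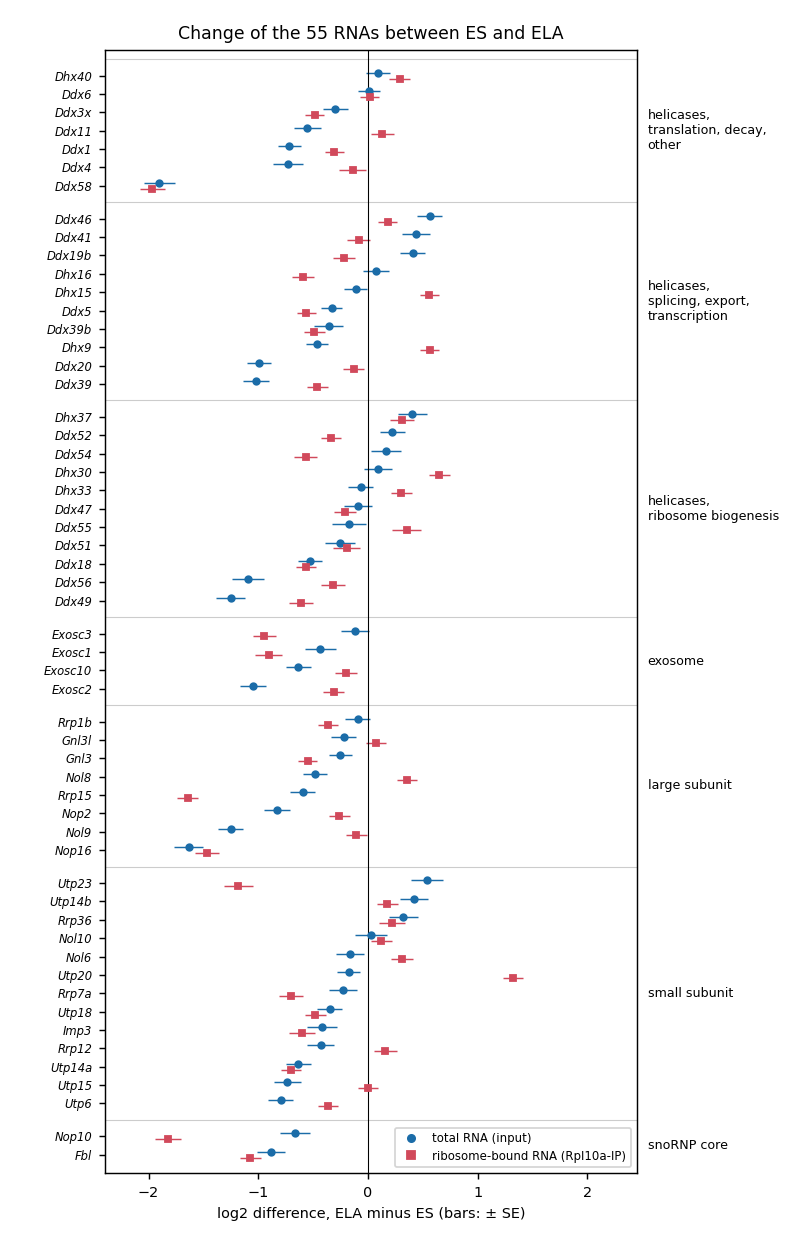
Log2 difference between ELA and ES (x axis; bars, ± SE from limma) for the 55 members, grouped by role, in total RNA (circles, 30 fell and 7 rose) and in ribosome-bound RNA (squares, 31 fell and 10 rose), without the length and GC correction. Points left of 0 are lower in ELA; Ddx58 lies at −1.90 and −1.97, and Utp20 and Utp23 show the widest gaps between their circle and square.

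The second comparison sets ELA against ES in ribosome-bound RNA, from the deeper Rpl10a-IP libraries, so that its log2 differences share no library with those of the first comparison. The fit left out ELA input replicate 1 and drew its estimate of the spread from the other 7 libraries, the remaining inputs included. This spread was pooled fully over genes of similar level, so a p-value here does not reflect the replicates of its own gene. Here 31 members fell and 10 rose, where 42.3% of all genes fell and 41.1% rose (83.4% called in all), with a median log2 difference of −0.26 over members and −0.02 over all genes. Both ELA libraries lay below both ES libraries for 36 members and above them for 15, against 47.0% and 45.1% of all genes. With the deposited size factors as the scaling, 35 members fell and 5 rose, and the median of all genes moved to −0.14. After transcript length and GC content were corrected for within each library, 22 of the 55 members fell and 16 rose, where 38.0% of 3119 genes fell and 39.2% rose, and the median over members was −0.09, so that the share of falls was then near that of all genes.

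Set beside total RNA, 22 of the 55 members fell in both fractions, where 26.2% of all genes did. Only Dhx37, which releases the U3 snoRNA from the small subunit precursor, rose in both, where 24.8% of all genes did, and after the length and GC correction it was called in neither (0.22 in total RNA and −0.20 on ribosomes), while Ddx41, Ddx47, Exosc3, Rrp36 and Utp14b were then called higher in both. The 22 were both snoRNP proteins, the small subunit factors Imp3, Utp6, Utp14a and Utp18, the large subunit factors Gnl3, Nop2, Nop16 and Rrp15, the exosome subunits Exosc1, Exosc2 and Exosc10, and 9 helicases: Ddx1, Ddx3x, Ddx5, Ddx18, Ddx39, Ddx39b, Ddx49, Ddx56 and Ddx58. A further 4 members (7.27%, against 9.34% of all genes) were called in opposite directions. Dhx9 and Nol8 fell in total RNA and rose on ribosomes, and Utp23 and Ddx19b did the reverse. Ddx6, Ddx51, Gnl3l and Nol10 were called in neither, but after the correction Ddx6 (−0.26 and −0.43) and Ddx51 (−0.29 and −0.54) were lower in both, Gnl3l lower in total RNA (−0.31) and Nol10 higher on ribosomes (0.25). Of the 22, Ddx3x and Imp3 were not called in total RNA without ELA input replicate 1, and Ddx3x, Ddx39b, Gnl3, Utp18 and Exosc1 not without ES input replicate 2. The length and GC correction ended the fall in at least 1 fraction for 14 of the 22. Those called lower in both with and without it were Ddx3x, Ddx5, Ddx39, Ddx49, Ddx58, Nop16, Utp6 and Utp14a. With it, 13 of the 55 members fell in both, a share near the 22.1% of all genes. Total RNA lost the calls of Ddx18, Ddx39b, Gnl3, Imp3, Nop10, Rrp15, Utp18 and Exosc1, and ribosome-bound RNA those of Ddx1, Ddx18, Ddx56, Fbl, Gnl3, Imp3, Nop2, Utp18, Exosc1, Exosc2 and Exosc10.

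Among the falls on ribosomes, Ddx58 was again the farthest, from 626 and 581 in ES Rpl10a-IP to 142 and 166 in ELA Rpl10a-IP (log2 difference −1.97, SE 0.11, adjusted p 6.89e-68). Nop10 (chromosome 2, 112261926 to 112262898), the smallest core protein of the box H/ACA snoRNPs that make pseudouridine, went from 342 and 405 to 105 and 105 (−1.82, SE 0.12, adjusted p 1.97e-51). Rrp15 (chromosome 1, 186721086 to 186749358), a large subunit factor, went from 1121 and 1153 to 349 and 378 (−1.64, SE 0.10, adjusted p 9.82e-63). In each of these 3 genes both ELA libraries lay below both ES libraries. Nop16 (−1.46), Utp23 (−1.18) and Fbl (−1.07) completed the 6 members that fell more than 2-fold, as 14.4% of all genes did.

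Smaller falls on ribosomes took in abundant members as well. Gnl3 had 4249 and 4534 in ES Rpl10a-IP and 2780 and 3226 in ELA Rpl10a-IP, a log2 difference of −0.55, and Ddx5 had 12186 and 13562 in ES and 8484 and 8915 in ELA (−0.56). In input they fell by 0.25 and 0.33, and the difference between the fractions was not called for either (adjusted p 0.0817 for Gnl3 and 0.149 for Ddx5). Among the processome proteins, Rrp7a and Utp14a (both −0.70), Imp3 (−0.61), Utp18 (−0.48) and Utp6 (−0.37) fell, and among the biogenesis helicases Ddx49 (−0.61), Ddx54 (−0.57), Ddx18 (−0.56), Ddx52 (−0.34), Ddx56 (−0.32) and Ddx47 (−0.21). After the length and GC correction, Ddx18, Ddx52, Ddx56 and Utp18 were not called, and Imp3 (0.70), Ddx47 (0.49) and Gnl3 (0.17) were called higher. The call of Ddx47 was also lost with median-of-ratios size factors and when ELA replicate 2 or either ES library was left out, and that of Ddx56 without ELA replicate 2 or ES replicate 1.

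Of 10 listed exosome subunits 4 were in the table, and all 4 fell on ribosomes, where 42.3% of all genes fell. The falls were 0.95 (Exosc3), 0.91 (Exosc1), 0.31 (Exosc2) and 0.20 (Exosc10) on the log2 scale. Exosc10 is the nuclear 3′ exonuclease, and Exosc1, Exosc2 and Exosc3 form the cap of the complex. Exosc3 had 575 and 561 in ES Rpl10a-IP and 268 and 322 in ELA Rpl10a-IP. The call of Exosc10 (adjusted p 0.0488) was lost when either ES library or ELA replicate 2 was left out. After the same correction none of the 4 was called lower: Exosc3 stood at 0.24 (adjusted p 0.0322) and Exosc2 at 0.40, both then higher, and Exosc1 (−0.06) and Exosc10 (−0.02) were not called.

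Utp20 (chromosome 10, 88746607 to 88826814), the large helical scaffold protein of the small subunit processome, was the only member that rose more than 2-fold on ribosomes, as 15.3% of all genes did. Its normalised counts were 3449 and 3530 in ES Rpl10a-IP and 8648 and 8805 in ELA Rpl10a-IP (log2 difference 1.32, SE 0.09, adjusted p 1.58e-49). In input it stood at 2676 and 3025 in ES and 2664 and 2385 in ELA, a difference of −0.17 that was not called (adjusted p 0.131). Its transcript, 8831 bases, is the longest of the members, and after the length and GC correction the rise on ribosomes was 0.33 (adjusted p 0.000217) and the input fell by 0.77 (adjusted p 7.16e-08).

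The other rises on ribosomes were mostly helicases. Dhx30, which serves mitochondrial ribosome assembly, rose by 0.65, from 632 and 644 to 1043 and 963. Dhx9, RNA helicase A (chromosome 1, 153455756 to 153487688), had 6806 and 7485 in ES and 10109 and 10991 in ELA (0.56, SE 0.09, adjusted p 2.25e-10), and Dhx15, which takes the spliceosome apart, had 4677 and 4891 in ES and 6970 and 7126 in ELA (0.56, SE 0.09, adjusted p 3.74e-10). No ELA library of these helicases overlapped an ES library. Nol8 (0.36), Ddx55 (0.35), Nol6 (0.31), Dhx37 (0.31), Dhx33 (0.30) and Dhx40 (0.29) rose less, and Nol6, Dhx33, Dhx37, Dhx40 and Ddx55 lost their call with the deposited size factors. After the length and GC correction Nol6 (−0.16), Dhx33 (−0.07) and Dhx37 (−0.20) were not called and lay below 0. Without ES Rpl10a-IP replicate 1, Nol6, Dhx37 and Dhx40 were not called, and without replicate 2, Dhx37 and Ddx55 were not.

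**Figure D2:**
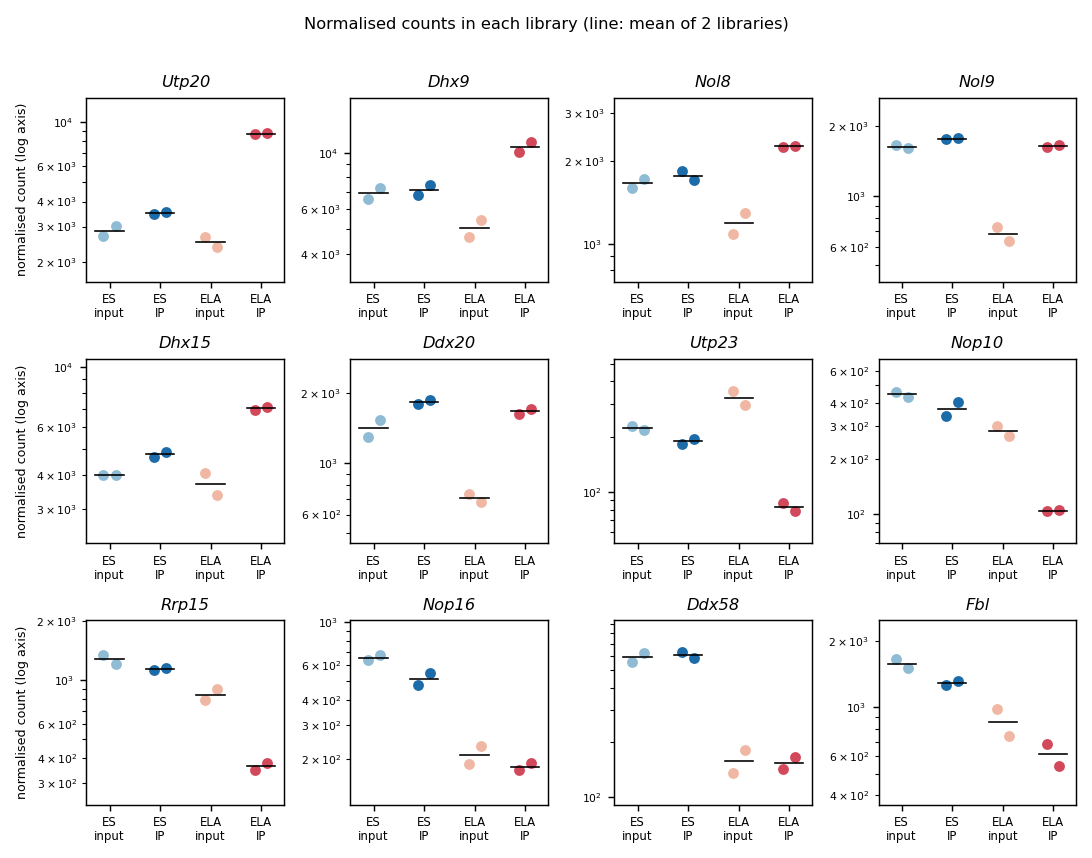
Normalised counts (log y axis) of 12 members in each of the 8 libraries, as points, with the mean of the 2 libraries of a group as a line. In ELA, Utp20, Dhx9, Nol8, Nol9, Dhx15 and Ddx20 were higher in Rpl10a-IP than in input and Utp23, Nop10 and Rrp15 lower; Ddx58, Nop16 and Fbl were lower in ELA than in ES in both fractions.

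The third question is how far each RNA was over- or under-represented on ribosomes at a given stage. Ribosome enrichment is the log2 difference between Rpl10a-IP and input, relative to the other genes. In ES, where the fit left out ELA input replicate 1, enrichment was small: 11 members were enriched and 10 depleted, where 19.5% of all genes were enriched and 20.0% depleted (39.5% called in all), with a median of −0.0036 over members, and 0 members (7 of all 3160 genes) differed by more than 2-fold. With total reads as the scaling the counts were 8 and 11. They rest on few libraries: the 21 calls became 9 without ES input replicate 1, 14 without ES input replicate 2, 11 without ES Rpl10a-IP replicate 1 and 8 without ES Rpl10a-IP replicate 2.

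In ES, 19.5% of all genes were enriched and 20.0% depleted. The enriched side held 5 of the 7 helicases of translation, decay and other tasks and none of the 11 helicases of ribosome biogenesis, of which 5 were depleted. After the length and GC correction, Dhx40 alone of those 5 enriched helicases was called, and Ddx18, Ddx51 and Dhx37 of the 5 depleted ones, and Dhx30, a helicase of ribosome biogenesis, was then called enriched (0.33). No test between the roles was made. Without the correction, Spearman's rho between enrichment in ES and GC content was −0.61 over the members and −0.41 over 3119 genes. Ddx1, Ddx3x, Ddx4 and Ddx6 each also lost their call when 1 of at least 2 single libraries was left out. The highest values were those of Dhx40 (0.39), Ddx20 (0.37), Utp6 (0.30), Utp20 (0.29), the germ cell helicase Ddx4 (0.29) and Ddx3x (0.26). Dhx40 had 946 and 979 in input and 1236 and 1296 in Rpl10a-IP, with no overlap. The lowest values were those of Imp3 (−0.46), a protein of the U3 particle, Dhx37 (−0.42), the rRNA methyltransferase Nop2 (−0.41), Ddx51 (−0.39), Ddx56 (−0.37) and Nop16 (−0.37). After the length and GC correction Imp3 (−0.15, adjusted p 0.322) was not called. Nop2 had 1428 and 1365 in input and 996 and 1111 in Rpl10a-IP, also with no overlap. Of these 12, Dhx40, Dhx37 and Nop2 kept their call whichever library was left out.

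In ELA the spread of enrichment over members was wider, with an SD of 0.72 on the log2 scale against 0.23 in ES (0.81 and 0.29 over all genes). Here 22 members were enriched and 21 depleted, where 36.8% of all genes were enriched and 37.2% depleted (74.0% called in all), and 7 members (674 of all genes) differed by more than 2-fold. Without ELA input replicate 1 the counts were 24 and 20, and after the length and GC correction 24 and 14 (43.6% and 25.5%, against 34.5% and 37.2% of 3119 genes). The most enriched were Utp20 (1.79), Nol9 (1.26), Ddx20 (1.24), Dhx9 (1.07), Nol8 (0.94) and Dhx15 (0.92), and the most depleted Utp23 (−1.96), Nop10 (−1.42), Rrp15 (−1.21), Ddx54 (−0.89), Dhx16 (−0.85) and Exosc3 (−0.83). Without that library the range of the first 6 was 0.81 to 1.87 and that of the other 6 was −1.83 to −0.62, with every call kept. Exosc3 lost its call after the length and GC correction (−0.14, adjusted p 0.291).

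**Figure D3:**
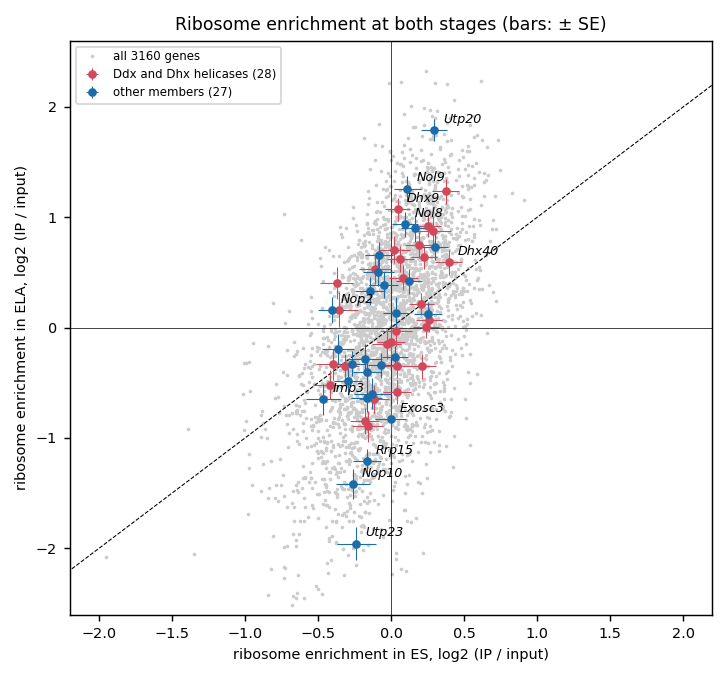
Ribosome enrichment in ES (x axis) against that in ELA (y axis), as log2 of Rpl10a-IP over input, for all 3160 genes (small points), the 28 helicases and the 27 other members (bars, ± SE from limma); the dashed line marks equal values. Members span −0.46 to 0.39 in ES and −1.96 to 1.79 in ELA.

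The fourth comparison tests the change of enrichment itself, as the interaction of stage and fraction over all 8 libraries. Enrichment was higher in ELA for 21 members and lower for 12, where 28.4% of all genes were higher and 27.7% lower (56.2% called in all), and the median was 0.0032 over members and 0.01 over all genes. With total reads as the scaling the counts were 16 and 14, and without ELA input replicate 1 they were 19 and 11. More than 2-fold, 3 members were higher (Utp20, Nol9 and Dhx9; 6.33% of all genes) and 3 lower (Utp23, Nop10 and Rrp15; 9.05% of all genes). Members of 1 machine went both ways: Utp20 and Utp23 both belong to the small subunit processome, and Nol9 and Rrp15 both serve the large subunit.

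Utp20 changed most among the rises, by 1.50 (SE 0.15, adjusted p 4.28e-10). Its ribosome-bound level was above its input level at both stages, by 1.23-fold in ES and 3.46-fold in ELA. Nol9 changed by 1.15 (SE 0.16, adjusted p 1.85e-07): in Rpl10a-IP it had 1757 and 1769 in ES and 1618 and 1659 in ELA, close to each other, while its input fell as given above. Dhx9 changed by 1.03 (SE 0.15, adjusted p 4.68e-07), with 6569 and 7281 in ES input and 4649 and 5406 in ELA input. Without the length and GC correction, Utp20 thus moved on the ribosome side, Nol9 on the input side, and Dhx9 on both in opposite directions. With it, Utp20 moved farther in input (−0.77) than on ribosomes (0.33), Nol9 stood at −1.17 and −0.24, and Dhx9 at −0.56 and 0.42. Ddx20, the Gemin3 subunit of the complex that assembles spliceosomal snRNPs, changed by 0.86, Nol8 by 0.84 and Ddx56 by 0.78. Ddx20 had 1297 and 1524 in ES input and 734 and 678 in ELA input, beside 1783 and 1862 in ES Rpl10a-IP and 1621 and 1707 in ELA Rpl10a-IP.

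Utp23 (chromosome 15, 51877441 to 51884622) changed most of all, by −1.72 (SE 0.21, adjusted p 2.21e-08). In Rpl10a-IP it had 183 and 195 in ES and 86.9 and 78.7 in ELA, so its level on ribosomes fell while its input level rose. Nop10 changed by −1.16 (SE 0.19, adjusted p 5.62e-06), with 462 and 431 in ES input and 299 and 265 in ELA input, a smaller fall than that on ribosomes. Rrp15 changed by −1.05 (SE 0.16, adjusted p 2.24e-06), with 1343 and 1212 in ES input and 788 and 901 in ELA input. Both fell in input and fell farther on ribosomes, but after the length and GC correction neither fall in input was called (−0.12 for Nop10 and −0.04 for Rrp15), while those on ribosomes were (−0.62 and −0.65). Exosc3 (−0.83), Ddx54 (−0.73) and Dhx16 (−0.66), which activates the spliceosome, followed. Without ELA input replicate 1, Utp20, Nol9, Dhx9, Ddx20, Nol8 and Ddx56 stood at 1.58, 1.25, 0.92, 0.92, 0.71 and 0.83. The values of Utp23, Nop10, Rrp15, Exosc3, Ddx54 and Dhx16 without it were −1.59, −1.07, −1.14, −0.84, −0.46 and −0.57, and no call was lost. The call of Exosc3 was lost after the length and GC correction (−0.24, adjusted p 0.229).

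Further members gained enrichment by less. Among them were the exosome subunit Exosc2 (0.74), the processome subunit Utp15 (0.73), the chromosome cohesion helicase Ddx11 (0.68), Dhx15 (0.67), Ddx49 (0.64), the precursor export factor Rrp12 (0.59), Ddx4 (0.59), Nop2 (0.57), Dhx30 (0.56) and Ddx39 (0.56). Utp15 had 929 and 1013 in ES input and 517 and 657 in ELA input, but 1072 and 1105 in ES Rpl10a-IP and 1033 and 1146 in ELA Rpl10a-IP. It thus fell in input while its ribosome-bound libraries overlapped between stages. Exosc2 had 981 and 863 in ES input and 489 and 403 in ELA input, beside 878 and 860 in ES Rpl10a-IP and 686 and 713 in ELA Rpl10a-IP, a fall in both that was smaller on ribosomes. Ddx55 (0.52), Nol6 (0.48), Utp6 (0.43) and Ddx1 (0.41) were called too, as were falls of Ddx52 (−0.56), the DNA sensing and splicing helicase Ddx41 (−0.53), Rrp7a (−0.47), Exosc1 (−0.47) and Ddx46 (−0.38), and of the nuclear pore helicase Ddx19b. The calls of Utp6, Ddx55, Ddx46, Rrp7a and Exosc1 were lost without ELA input replicate 1 and without several other single libraries, and those of Rrp12, Dhx30, Nol6, Ddx39, Ddx55 and Exosc1 after the length and GC correction. Those of Nol6, Ddx1, Ddx4, Ddx39, Ddx41 and Dhx30 were lost when at least 1 of the other 7 libraries was left out. Ddx19b had 836 and 910 in ES input and 1115 and 1198 in ELA input, against 910 and 884 in ES Rpl10a-IP and 743 and 800 in ELA Rpl10a-IP, so that it rose in input and fell on ribosomes with no overlap in either. The fall on ribosomes (−0.22) was not called when ELA Rpl10a-IP replicate 1 or either ES Rpl10a-IP library was left out, and the rise in input not after the length and GC correction.

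Several abundant members showed no change of enrichment that passed the test. Ddx6 stood at 0.00 (SE 0.14), Ddx3x at −0.19 (SE 0.16) and Fbl at −0.19 (SE 0.18), and errors of this size leave room for a change in either direction. Without ELA input replicate 1, Ddx3x was called at −0.37 (adjusted p 0.0127). Ddx3x had 13273 and 14511 in ES input, 9951 and 12826 in ELA input, 15946 and 17298 in ES Rpl10a-IP and 10703 and 13131 in ELA Rpl10a-IP. It thus fell in both fractions, by 0.30 in input and 0.49 on ribosomes on the log2 scale, and the fall in input was not called without that library (−0.11, adjusted p 0.334). Exosc10 rose in enrichment by 0.44 (adjusted p 0.0227), a call lost with total reads as the scaling and when ELA Rpl10a-IP replicate 1, ES input replicate 1 or either ES Rpl10a-IP library was left out. Without the length and GC correction, Nol10 was the only member called in none of the 5 comparisons.

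The changes on ribosomes and in enrichment moved with transcript length, over members more weakly in enrichment. Whether members differ from all genes in this was not tested. Across genes, which are not independent replicates and share the same 8 libraries, Spearman's rho between the change on ribosomes and transcript length was 0.53 over the 55 members and 0.61 over 3119 genes with a length. For the change of enrichment it was 0.21 over members and 0.44 over all genes, and with the coding length 0.42 and 0.62. The 19 shortest members (898 to 2799 bases) had a median change on ribosomes of −0.56, the 18 of middle length (2807 to 3929 bases) of −0.35 and the 18 longest (4071 to 8831 bases) of 0.14. Changes of enrichment in the same bands were 6 higher and 5 lower, 7 and 4, and 8 and 3. Among all genes, 12.8% of the shortest band were higher and 42.0% lower, 23.2% and 31.4% of the middle band, and 39.9% and 15.3% of the longest band. Corrected for length and GC content, the median over members was −0.26 for total RNA, −0.09 on ribosomes and 0.15 for the change of enrichment. In total RNA 28 members then fell and 8 rose (34.7% and 33.8% of 3119 genes did), and enrichment was higher in ELA for 17 and lower for 12 (25.2% and 25.5% of them). The values on ribosomes moved most for Imp3 (−0.61 to 0.70), Nop10 (−1.82 to −0.62), Exosc3 (−0.95 to 0.24), Fbl (−1.07 to −0.04) and Utp20 (1.32 to 0.33), which are 4 short transcripts and the longest. After the correction, Spearman's rho between the change on ribosomes and transcript length was −0.01 over all genes but −0.30 over the members, so that over these it changed sign rather than going to 0. The part of length in these results was not tested beyond this correction.

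**Figure D4:**
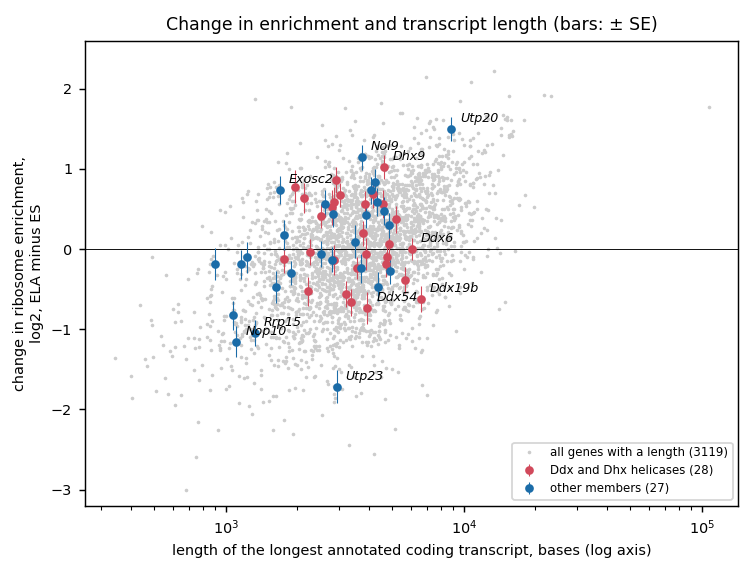
Change of ribosome enrichment between the stages (y axis, log2, ELA minus ES; bars, ± SE from limma) against the length of the longest coding transcript (log x axis) for 3119 genes (small points) and the 55 members. Utp20, at 8831 bases, lies at 1.50, while Nop10 and Rrp15, at 1109 and 1321 bases, lie at −1.16 and −1.05.

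Other genes of the pathway, from lists that leave out the members, are given beside them. Of 113 listed genes for RNA polymerase I, further subunit factors, snoRNP assembly and exosome cofactors, 51 were in the table. In total RNA 33 fell and 5 rose (64.7% and 9.80%, against 35.8% and 34.5% of all genes), on ribosomes 35 fell and 10 rose (68.6% and 19.6%, against 42.3% and 41.1%), and in enrichment 15 were higher and 17 lower in ELA (29.4% and 33.3%, against 28.4% and 27.7%). Their medians were −0.45 in total RNA, −0.45 on ribosomes and 0.0050 for the change of enrichment, and −0.31, −0.17 and 0.17 after the length and GC correction. Among 18 large subunit factors of that kind 15 fell in total RNA, led by Ebna1bp2 (−1.20), and among 14 small subunit factors 10 fell, led by Ngdn (−1.38). Of 8 RNA polymerase I genes, 5 fell in total RNA and 5 gained enrichment. Of 11 genes of snoRNP assembly, exosome cofactors and rRNA decay, 3 fell and 2 rose in total RNA (median −0.04), and 3 gained and 6 lost enrichment. Of 18 RNA helicases with other names, 8 were in the table, and 7 gained enrichment and 0 lost it (28.4% and 27.7% of all genes did), with Helz highest (1.31) and a median of 0.81, or 0.69 after the length and GC correction. The Ddx and Dhx members had a median of 0.03 in the same comparison, with 11 higher and 6 lower out of 28, and the difference between these lists was not tested.

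Because many members fell in both fractions before the length and GC correction, their promoters were searched for CACGTG. This is the E-box that MYC and its partner MAX can bind in ribosome biogenesis genes. After the correction, the share of members that fell in both was near that of all genes. RefSeq promoters (GRCm38.p6, 250 bases before to 50 after each start) were found for 46 of the 55 members, and 9 of the 46 (19.6%) held the motif, against 13.9% of 2448 genes of the table and 8.09% of 27025 genes of the genome. The motif reads the same on both strands. Of the 9, Nop2, Utp18 and Ddx5 fell in both fractions before the correction, and Ddx5 alone of them after it. Their windows are shown with the motif in capitals, followed by that of Utp14b, which rose in total RNA. Each is written 5′ to 3′ on the strand of its gene.
Nop2, chr6:125131811-125131840, plus strand, motif starting 60 bases before the start: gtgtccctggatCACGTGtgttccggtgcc
Utp18, chr11:93885769-93885798, minus strand, 20 bases before the start: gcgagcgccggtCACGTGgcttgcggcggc
Ddx5, chr11:106788920-106788949, minus strand, 30 bases before an annotated start inside the gene: cctgggtccgatCACGTGatgaggccaagc
Utp14b, chr1:78658365-78658394, plus strand, 63 bases before an annotated start inside the gene: cgcgggcgcgggCACGTGggtggggtcgtc
Of the others with the motif, Ddx4 fell in total RNA and Rrp7a on ribosomes, and Utp20, Dhx33 and Dhx40 rose on ribosomes, Dhx33 only before the correction. The motif was thus present in members that fell and in members that rose, and a match of these letters is a description, not a binding site.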

How the data were processed

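The authors mapped reads to the mm10 transcriptome with TopHat2 (at most 2 hits and 2 mismatches, repeats left out), counted them per gene with htseq-count and divided each library by a DESeq2 size factor, so the deposited per-library values are a normalised read signal and not raw counts. Tool versions and the strand setting are not given in the sources used here. The table was filtered on level and on the spread of replicate ratios. It holds 26 further columns, with the authors' means, SDs, ratios, fold changes and a log2 of the latter, which were not used, and 0 per-sample columns of other samples. Control immunoprecipitations were not analysed here.

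Within a library all values were multiples of a single step, that of 1 read, and the reads obtained by dividing by it were scaled with TMM factors. Differences were tested with limma (lmFit, then eBayes with a trended prior; version 3.58.1 under R 4.3.3) on log2 of the normalised count plus 1, with 1 coefficient per group and Benjamini-Hochberg adjustment over 3160 genes. A pseudocount of 1 understates changes of low genes. Ribosome enrichment in ES and the change on ribosomes used 7 libraries, without ELA input replicate 1, and the other 3 comparisons used all 8. Groups came from the sample titles. Transcript lengths were those of the longest coding transcript in GENCODE vM1, found for 3119 genes, and coordinates are RefSeq GRCm38.p6. The length and GC correction was a loess fit per library (span 0.5). The members, roles and lists were chosen with earlier results of these data known. Named in the text are, per comparison, the 6 highest and 6 lowest called members, with Fbl, Exosc10, Ddx6, Ddx3x and Dhx9 as landmarks, and further members where a count or a list turns on them, named after their values were seen. The fits were run on simulated libraries with the depths of the real ones, drawn from a shared profile with a fixed spread. These lacked a length trend, the filter on replicate ratios and lysates shared by input and Rpl10a-IP. They therefore do not measure the error rates in these data. Alternatives were other scalings, pseudocounts of 0.1 and 10, a filter on low genes, the replicate number as a block, the length and GC correction, 7 or 8 libraries, leaving out each library, a replicate block within each stage and library quality weights, the last 2 chosen after seeing the data.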

Additional observations from a re-analysis of the deposited data

Results flagged for a closer look

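The stage difference of ribosome enrichment was itself tested, as the interaction of stage and fraction in limma over all 8 libraries, and 33 of the 55 members passed it. Given here as values only are the 6 highest, the 6 lowest and Exosc10. Enrichment was higher in ELA than in ES by 1.50 for Utp20, 1.15 for Nol9, 1.03 for Dhx9, 0.86 for Ddx20, 0.84 for Nol8, 0.78 for Ddx56 and 0.44 for Exosc10, on the log2 scale. It was lower by −1.72 for Utp23, −1.16 for Nop10, −1.05 for Rrp15, −0.83 for Exosc3, −0.73 for Ddx54 and −0.66 for Dhx16. Among all genes tested, 28.4% were higher and 27.7% lower.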

How the results depend on the processing

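Depth limits the results: the ELA input libraries held 159587 and 410192 reads, and everything that uses ELA input rests on them. The counts of members called in total RNA, on ribosomes and in the change of enrichment kept their order of higher against lower under every alternative run. With only the 2370 genes of higher mean level, 5 members were depleted in ES, and the medians were 0.13 for enrichment in ELA and −0.25 for total RNA. With all 8 libraries, enrichment in ES had 9 calls among members, 3 higher and 6 lower, and 762 among all genes, where 7 libraries gave 21, 11, 10 and 1247. With total reads as the scaling, the medians were −0.042 for enrichment in ELA, −0.27 for total RNA and −0.089 for the change of enrichment, where the median of all genes in ELA enrichment moved to −0.12. With the deposited size factors, the medians were −0.43 for total RNA and −0.37 on ribosomes, 5 members rose on ribosomes, and the medians of all genes moved to −0.12 and −0.14. These factors were computed within each fraction, so they could not be used for enrichment at a single stage. With the length and GC correction alone, 7 members were enriched in ES, 16 rose on ribosomes, and the medians were 0.14 for enrichment in ELA, −0.26 for total RNA, −0.091 on ribosomes and 0.15 for the change of enrichment. With 7 libraries, the medians were −0.0045 for enrichment in ELA and 0.058 for the change of enrichment. Ddx6, near 0 in 3 comparisons and called in none of them without the length and GC correction, changed sign in total RNA with the deposited size factors (−0.088), the length and GC correction (−0.26) and 7 libraries (−0.032). On ribosomes it did so with total reads (−0.015), the deposited size factors (−0.097) and the length and GC correction (−0.43), and in the change of enrichment with total reads (−0.089), the deposited size factors (−0.0096) and the length and GC correction (−0.17). Fbl changed sign in the change of enrichment with the length and GC correction (0.32) and with 7 libraries (0.012). Why these values moved was not tested, beyond what fewer libraries or genes imply.

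The replicate numbers in the sample titles were tried as a block, although another label gives both input libraries of a stage the number 1. The deviation of a library from the mean of its group correlated over genes, for libraries of equal number, at 0.50 between ELA input and ELA Rpl10a-IP, 0.17 between the ES pair, 0.15 between the inputs, 0.17 between ELA Rpl10a-IP and ES input, 0.04 between ELA input and ES Rpl10a-IP, and −0.02 between the Rpl10a-IP libraries. Each input was taken from the lysate that then went into the immunoprecipitation, so input and Rpl10a-IP of 1 stage and number may be parts of 1 sample, although that the numbers match is not given in the sources used here. Between stages the libraries share only a number. With the number as a block within each stage, chosen after seeing the data, members called higher and lower were 12 and 11 for enrichment in ES, 22 and 22 in ELA and 22 and 12 in the change of enrichment, and no member lost its call. With the block, members called higher and lower were 11 and 10 for enrichment in ES, 23 and 22 in ELA, 7 and 31 in total RNA, 11 and 31 on ribosomes and 22 and 12 in the change of enrichment. With the block added to the length and GC correction, 16 members rose on ribosomes, the medians were 0.14, −0.26, −0.091 and 0.15 for enrichment in ELA, total RNA, ribosomes and the change of enrichment, Ddx6 stood at −0.26, −0.43 and −0.17 in the last 3, and Fbl at 0.32 in the last.

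Leaving out single libraries gave 8 to 23 calls for enrichment in ES among members, 2 to 12 higher and 3 to 11 lower, and 722 to 1348 among all genes, with a median of −0.066 to 0.0071. The medians ranged from −0.039 to 0.16 for enrichment in ELA and from −0.038 to 0.077 for the change of enrichment, and the members that rose in total RNA from 4, without ES input replicate 2, to 8. Ddx6 ranged from −0.032 to 0.054 in total RNA, from −0.030 to 0.059 on ribosomes and from −0.041 to 0.048 in the change of enrichment, and Fbl from −0.39 to 0.012 in the last. Count models (edgeR and voom) were planned and not run, so the reads recovered from the normalised values were tested on the log2 scale only. Library quality weights, chosen after seeing the data, changed no count over members by more than 1.5 times.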
